A study of Homo sapiens with 4 samples.

Results

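The genes described here take up, store, export and sense iron, and they were followed in MHCC97-H cells, a line derived from human hepatocellular carcinoma. The 10 genes are FTH1 and FTL, which encode ferritin, the uptake genes TFRC, STEAP3, SLC11A2 and SCARA5, the exporter SLC40A1, the sensors ACO1 and IREB2, and NCOA4, which sends ferritin to the lysosome. They are 10 of the 58735 genes in the deposited count table, matched by GENCODE 29 symbol. Their log2 fold changes between clofazimine and untreated cells were known when they were chosen by pathway, so these were among the values that the members were selected on, and the values below are a description, with no test of their own. The cells were wild type in all libraries. The 2 clofazimine libraries came from cells kept for 16 h with clofazimine, a riminophenazine antibiotic, at a dose that the sample labels give as 40 uM and the series description as 30 uM. The 2 untreated libraries carry the label no treatment, and no vehicle is named for them. All libraries come from 1 cell line, and nothing in the labels states that replicates were grown as separate cultures. P-values then measure only the spread between these libraries, which may be technical.

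Cells bring in iron bound to transferrin through the transferrin receptor, reduce it in the endosome, carry it into the cytosol and keep what they do not use inside ferritin, a hollow shell of heavy and light chains. When iron is scarce, iron regulatory proteins bind a hairpin in mRNA, the iron-responsive element. Bound before the coding sequence, as in the ferritin mRNAs, the proteins block translation, and bound after it, as in the transferrin receptor mRNA, they slow decay. Liver cells are a main store of iron and the main source of transferrin and hepcidin in the body.

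The hairpins are shown because the iron sensors bind elements of this kind in mRNA. In the protein-coding transcripts of GENCODE 29, a bulged C, a stem of 5 base pairs, the loop CAGTGN with no G at the last base, and at least 3 further base pairs below the bulge were searched for on the transcript strand, with G-T pairs allowed. Of 19677 protein-coding genes 22 held such a match (0.112%), among them 4 of the 10 members with 7 sites. The loop is in capitals in each 29-base site, written 5′ to 3′ on the strand of the transcript with T for U, at GRCh38 positions.

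FTH1, 5′ untranslated region, chr11:61967574-61967602, minus strand: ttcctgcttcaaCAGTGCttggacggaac
FTL, 5′ untranslated region, chr19:48965335-48965363, plus strand: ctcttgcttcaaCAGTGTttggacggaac
SLC40A1, 5′ untranslated region, chr2:189580661-189580689, minus strand: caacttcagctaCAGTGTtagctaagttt
TFRC, 3′ untranslated region, chr3:196050979-196051007, minus strand: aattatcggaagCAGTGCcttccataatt
TFRC, 3′ untranslated region, chr3:196050575-196050603, minus strand: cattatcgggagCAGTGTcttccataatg
TFRC, 3′ untranslated region, chr3:196050510-196050538, minus strand: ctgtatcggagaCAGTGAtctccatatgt
TFRC, 3′ untranslated region, chr3:196050463-196050491, minus strand: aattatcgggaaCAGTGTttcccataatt

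The FTH1 and FTL sites were identical at 26 of 29 bases. TFRC held 4 sites, in 3 of its 4 protein-coding transcripts, and the SLC40A1 site lay in 1 of 5. No match in the remaining members says only that these letters and pairs are not in their annotated transcripts. EPAS1 and CDC42BPA, listed below as carriers of a known element, had no match either, so the search can miss carriers.

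The clofazimine libraries held 13543437 and 16318759 counts and the untreated libraries 16429147 and 16860578. Levels are CPM, counts scaled to library size after TMM (trimmed mean of M values). A count of 0 allows a level of up to 3 counts, or 0.169 to 0.233 CPM. Of the 12 markers of hepatocytes and liver cancer set for checking the label, ALB, AFP, APOB and TTR had 0 counts in every library and 5 reached a mean of 1 CPM, led by the keratins KRT8 and KRT18. Their summed level was 1764 and 2001 CPM in the clofazimine and 1621 and 1893 CPM in the untreated libraries, nearly all of it from the 2 keratins. GPC3, APOA1 and TF stayed under 1 CPM in every library, so these markers did not by themselves show a hepatocyte profile. The hepatocyte genes SERPINA1 and HNF4A were called lower, at log2 fold changes of -2.14 (adjusted p 1.82e-05) and -3.17 (adjusted p 6.76e-05). HNF4A had only 1 and 9 counts in the clofazimine libraries, against 49 and 65 in the untreated libraries. Both clofazimine counts were below the minimum count of 10. HNF4A thus passed the filter on low counts only through the untreated libraries, which favoured a lower level with clofazimine. KRT18 was called higher (0.36, adjusted p 0.0364), and KRT8 (-0.03) and EPCAM (0.40) were not called. Of the macrophage markers, PTPRC and CD163 were at 0 and CD14 alone passed 1 CPM, with 18.5 and 20.6 CPM in the clofazimine and 33.3 and 40.0 CPM in the untreated libraries. No erythroid marker of 4 reached a mean of 1 CPM, and HBB was at 0. Endothelial markers summed to 5.98 and 5.77 CPM with clofazimine and 25.4 and 32.8 CPM without, and the tested markers PECAM1 (-2.37) and CDH5 (-1.72) were lower. Fibroblast and stellate markers summed to 144 and 123 CPM with clofazimine and 113 and 116 CPM without, a sum carried by COL1A1 (log2 fold change 0.44, higher). The other 3 of these 4 markers were lower, PDGFRB at -2.96, ACTA2 at -2.64 and COL3A1 at -2.45. COL3A1 had 4 and 4 counts with clofazimine and 25 and 31 without, so it too passed the filter only through the untreated libraries. The part of these markers in the results below was not tested. Nuclear and snoRNA-host transcripts set as a check on RNA quality were called higher in the clofazimine libraries for 5 of 5 genes, against 29.5% of all genes tested. Their log2 fold changes were 1.98 for GAS5, 1.63 for SNHG1, 0.96 for MALAT1, 0.92 for KCNQ1OT1 and 0.37 for NEAT1. The first 2 were as large as those of the ferritin genes below. Whether these transcripts reflect RNA quality here, and their part in the results, was not tested. In such bulk samples, fewer cells that express a gene and less RNA per cell cannot be told apart.

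Of the 10 members, 5 were called higher and 3 lower in the clofazimine libraries and 2 were not called, with edgeR's quasi-likelihood test at a Benjamini-Hochberg adjusted p under 0.05 over all 16388 genes tested. By that rule 59.9% of all genes tested were called, 29.5% higher and 30.4% lower. With library totals in place of TMM, which shifted the median gene by -0.17 on the log2 scale, 3 members were called higher and 4 lower, and over all genes 37.4% of calls were higher in place of 49.2%. Without either untreated replicate, 3 members were called higher and 3 lower. For 9 of the 10 members the libraries of the 2 groups did not overlap, as for 80.8% of all genes tested. The median log2 fold change was 0.16 over the members and -0.03 over all genes tested. All 10 members passed the filter on low counts. SLC40A1 passed it only through the untreated libraries, with 19 and 22 counts. Its clofazimine libraries held 6 and 9, below the minimum count of 10, so the filter favoured a lower level with clofazimine.

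**Figure D1:**
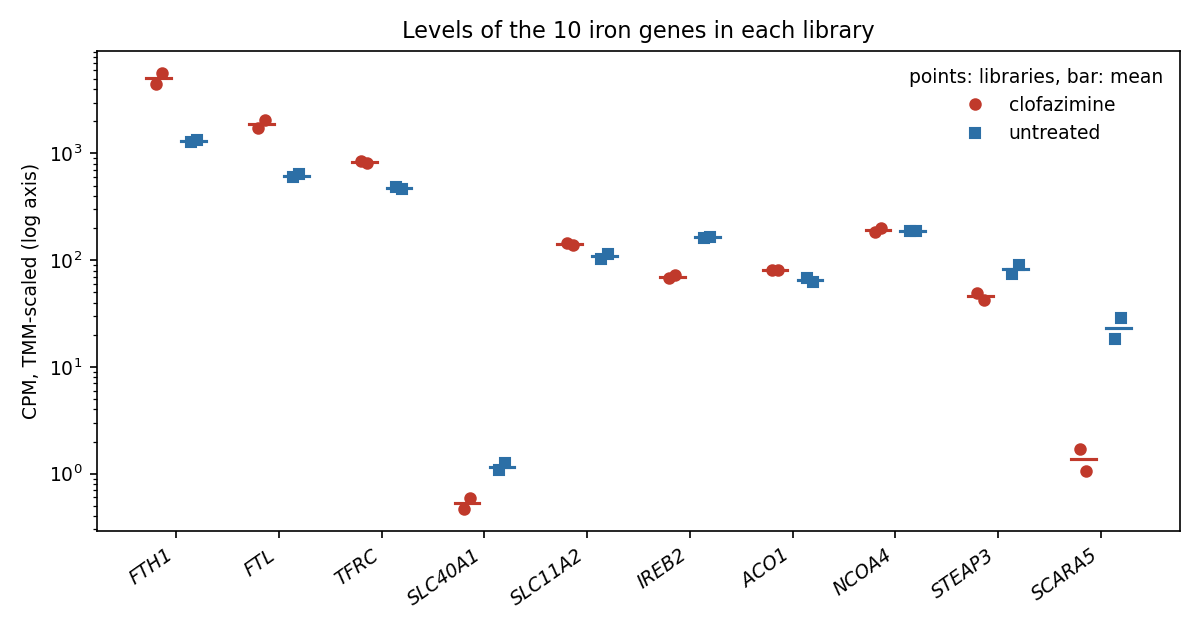
TMM-scaled CPM on a log axis for each of the 10 genes, with clofazimine libraries as red circles, untreated libraries as blue squares and a bar at the mean of each group. FTH1 stands between 4436 and 5721 CPM with clofazimine and between 1269 and 1339 CPM without, SCARA5 between 1.05 and 1.71 CPM with clofazimine and between 18.1 and 28.6 CPM without, and the NCOA4 groups overlap.

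Both ferritin genes were higher in the clofazimine libraries. FTH1 (ENSG00000167996, GRCh38 chromosome 11, 61959718 to 61967660) encodes the heavy chain, which oxidises iron as it enters the shell. Its level was 4436 and 5721 CPM in the clofazimine libraries, against 1269 and 1339 CPM in the untreated libraries. The lower clofazimine library was thus above the higher untreated one by a wide margin, while the 2 clofazimine libraries differed from each other more than the 2 untreated ones. The log2 fold change was 1.96 ± 0.16 (SE), a 3.90-fold higher level. FTL (ENSG00000087086, chromosome 19, 48965301 to 48966878) encodes the light chain, which helps the iron core to form. It had 1742 and 2050.5 CPM in the clofazimine libraries, against 603 and 636 CPM in the untreated libraries. Here too the groups were apart and clofazimine replicate 2 was the higher library of its group. The log2 fold change of FTL was 1.61 ± 0.14, a 3.06-fold higher level.

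As a share of all counts, which needs no scaling, FTH1 took 0.421% (95% exact binomial interval 0.418 to 0.425) and 0.535% (0.531 to 0.538) in the clofazimine libraries. In the untreated libraries its share was 0.135% (0.134 to 0.137) and 0.140% (0.139 to 0.142). FTL took 0.165% and 0.192% of the counts with clofazimine, against 0.0643% and 0.0667% without. The 2 genes together made up 0.587% and 0.727% of the clofazimine counts, against 0.200% and 0.207% of the untreated counts. These intervals cover counting error only, since the reads carried no molecular identifiers. The difference between the 2 clofazimine libraries lay outside them.

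The balance of the 2 chains also differed between the groups. There were 2.55 and 2.79 FTH1 counts for each FTL count in the clofazimine libraries, against 2.10 and 2.10 in the untreated libraries. Both untreated libraries gave the same ratio to the digits shown, and both clofazimine libraries lay above it. Per group the ratio averaged 2.67 ± 0.172 with clofazimine and 2.10 ± 0.000516 without (SD, n = 2 libraries each).

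**Figure D2:**
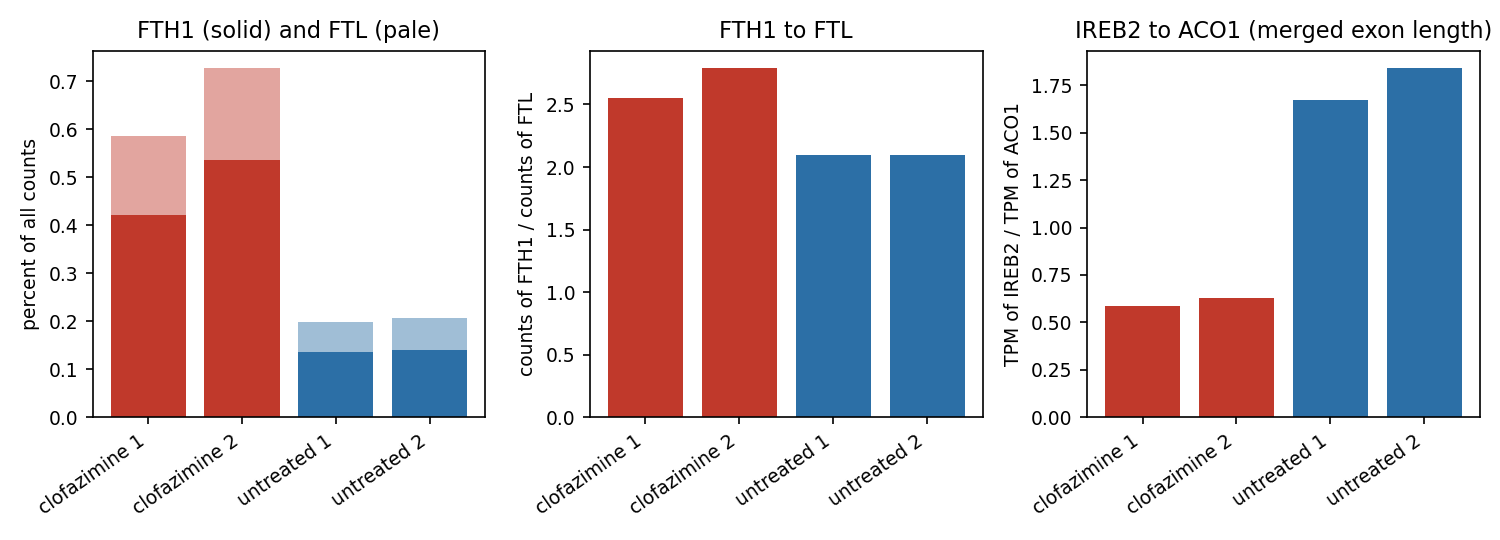
Bars give, for each clofazimine library (red) and untreated library (blue), the percent of all counts in FTH1 (solid) and FTL (pale), the FTH1 to FTL count ratio, and the IREB2 to ACO1 ratio of length-scaled levels (TPM, with merged exon length). The clofazimine bars are taller in the first 2 panels and shorter in the third, where they stand at 0.587 and 0.630 against 1.67 and 1.84.

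Ferritin genes have many near-identical processed copies in the genome, which can draw reads from the parent genes. The table holds 25 FTH1 copies, 17 of them with a count, and 16 FTL copies, 5 with a count. The FTH1 copies together had 474 and 610 counts in the clofazimine libraries, or 0.831% and 0.699% of the FTH1 counts, against 223 and 169 counts, or 1.00% and 0.714%, in the untreated libraries. FTH1P2, FTH1P8 and FTH1P7, the 3 copies with a mean of at least 1 CPM, had log2 fold changes of 1.77 ± 0.24, 1.76 ± 0.21 and 2.01 ± 0.32. Whether their reads come from FTH1 mRNA cannot be told from the counts. The FTL copies had 12 and 23 counts with clofazimine and 20 and 22 without. FTH1 also overlaps BEST1 on the opposite strand, and whether reads were counted by strand is not given in the sources used here, so reads of the 2 genes cannot be told apart. BEST1 had 3.81 and 3.74 CPM in the clofazimine and 4.56 and 2.26 CPM in the untreated libraries, far below FTH1.

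Among the uptake genes, TFRC was higher and STEAP3 and SCARA5 were lower in the clofazimine libraries. TFRC (ENSG00000072274, chromosome 3, 196027183 to 196082189) encodes transferrin receptor 1, the main entry for transferrin-bound iron. It had 849.8 and 815 CPM in the clofazimine libraries, against 482 and 462 CPM in the untreated libraries. The libraries of each group lay close together and the groups did not overlap. The log2 fold change was 0.82 ± 0.13, or 1.76-fold. Ferritin mRNA and TFRC mRNA were thus both more abundant with clofazimine, and FTH1 by more. The FTH1 to TFRC ratio of length-scaled levels (TPM) was 20.3 and 27.3 in the clofazimine libraries, against 10.2 and 11.3 in the untreated libraries.

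STEAP3 (ENSG00000115107, chromosome 2, 119223831 to 119265652) encodes the ferrireductase that reduces transferrin iron in the endosome. Its level was 49.4 and 42.0 CPM in the clofazimine libraries, against 74.5 and 91.0 CPM in the untreated libraries. The groups were apart, and the untreated libraries differed from each other by more than the clofazimine ones. The log2 fold change was -0.86 ± 0.13, a 1.81-fold lower level, and it was -0.50 after correcting for GC content and exon length. STEAP3-AS1, on the opposite strand, stayed under 1 CPM in every library.

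SLC11A2 (ENSG00000110911, chromosome 12, 50979401 to 51028566) encodes DMT1, which carries ferrous iron out of the endosome. It had 146 and 139 CPM in the clofazimine libraries and 103 and 114 CPM in the untreated libraries. The groups did not overlap, at a log2 fold change of 0.39 ± 0.12. That call ended with library totals (0.23), without untreated replicate 1 (0.30) and without untreated replicate 2 (0.45).

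The largest difference of the 10 genes was that of SCARA5 (ENSG00000168079, chromosome 8, 27869882 to 27992727), whose product binds ferritin outside the cell and brings it in. Only 22 and 16 counts were found in the clofazimine libraries, against 317 and 506 in the untreated libraries. On the CPM scale these were 1.71 and 1.05, against 18.1 and 28.6. The 2 untreated libraries spread widely, yet the lower of them was far above both clofazimine libraries. The log2 fold change was -4.10 ± 0.28, a 17.1-fold lower level. It ranged from -4.45 to -3.74 as each library was left out in turn. The genes annotated on the opposite strand, AC069113.2 and AC069113.3, had a mean under 1 CPM in both groups. AC069113.1 and MIR4287, which overlap SCARA5 on the same strand, had 0 counts in every library.

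The exporter SLC40A1 (ENSG00000138449, chromosome 2, 189560579 to 189583758), ferroportin, is the known route by which iron leaves cells, and it was close to the limit of detection. It had 6 and 9 counts in the clofazimine libraries and 19 and 22 counts in the untreated libraries. In CPM these were 0.466 and 0.590, against 1.08 and 1.25. The groups did not overlap, but at these few counts the log2 fold change of -1.12 ± 0.49 was not called. It was called with library totals (-1.28) and after correcting for GC content and exon length (-1.18). It was also called with a filter of 1 CPM in 2 libraries (-1.13), which only the untreated libraries met.

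The 2 iron regulatory proteins went in different directions. IREB2 (ENSG00000136381, chromosome 15, 78437431 to 78501456) encodes iron regulatory protein 2, which is degraded when iron is plentiful. Its level was 67.4 and 72.2 CPM in the clofazimine libraries, against 161 and 166 CPM in the untreated libraries. Replicates agreed closely in both groups, and the log2 fold change was -1.23 ± 0.12, a 2.34-fold lower level. ACO1 (ENSG00000122729, chromosome 9, 32384603 to 32454769) encodes iron regulatory protein 1, which is a cytosolic aconitase when it holds an iron-sulfur cluster. ACO1 had 80.3 and 80.1 CPM in the clofazimine libraries, against 67.7 and 63.1 CPM in the untreated libraries. The difference was small, at a log2 fold change of 0.30 ± 0.12. Its call ended with library totals (0.13), without a filter (0.30), with the DESeq2 Wald test (0.31), without untreated replicate 1 (0.33) and without untreated replicate 2 (0.23).

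Within a library, the ratio of IREB2 to ACO1 does not depend on scaling between libraries. It was 0.587 and 0.630 in the clofazimine libraries, against 1.67 and 1.84 in the untreated libraries, on the TPM scale. The size of each ratio depends on the gene lengths used, and with the median length of the coding transcripts the values were 1.23 and 1.32, against 3.48 and 3.84. Under either length, both clofazimine libraries lay below both untreated ones.

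NCOA4 (ENSG00000266412, chromosome 10, 46005088 to 46030714) encodes the receptor that delivers ferritin to the lysosome, where its iron is released. It had 182 and 199 CPM in the clofazimine libraries and 186 and 188 CPM in the untreated libraries. Both untreated values fell between the 2 clofazimine values. The log2 fold change was 0.02 ± 0.12 and was not called, and its sign turned with library totals (-0.14), after the GC and length correction (-0.02), without clofazimine replicate 2 (-0.03) and without untreated replicate 1 (-0.0046).

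**Figure D3:**
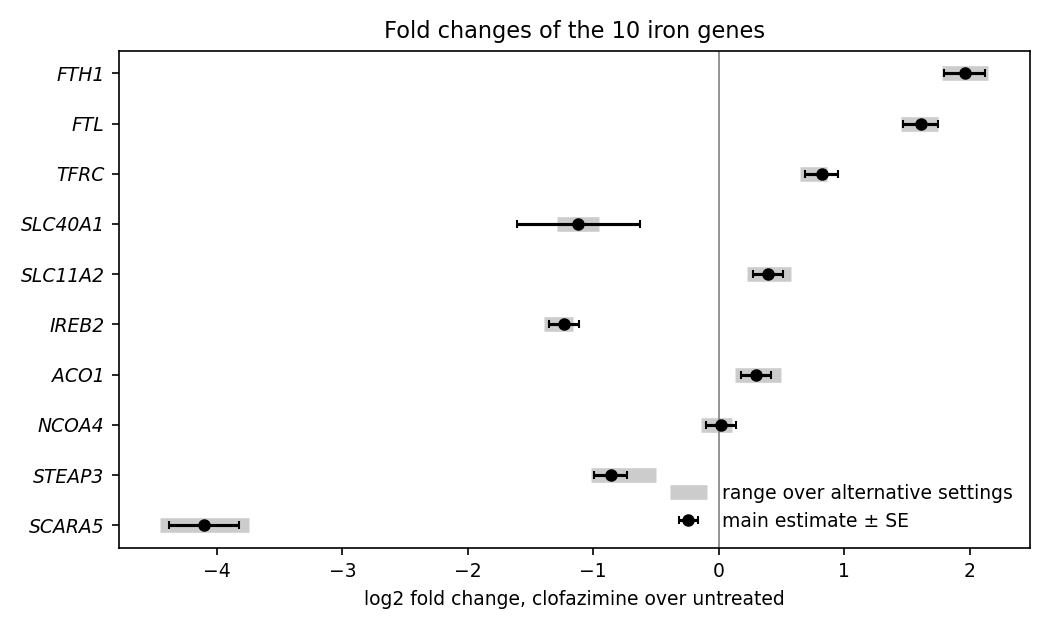
Log2 fold change, clofazimine over untreated, for each of the 10 genes, with the edgeR estimate and its SE as black points and bars and the range over all alternative settings as grey bands. FTH1 (1.96), FTL (1.61) and TFRC (0.82) lie right of 0 and IREB2 (-1.23), STEAP3 (-0.86) and SCARA5 (-4.10) left of 0 with their whole bands, while the NCOA4 band crosses 0.

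To set levels of different genes side by side, counts were divided by merged exon length and brought to TPM (the length-scaled counterpart of CPM), which carries no TMM factor. In the clofazimine libraries FTH1 (8741 ± 1257 TPM) and FTL (7554 ± 601) came first, and their means differed by less than the FTH1 SD. TFRC (370.2 ± 24.2), NCOA4 (163 ± 4.64) and SLC11A2 (49.4 ± 3.52) followed. ACO1 (37.2 ± 1.39) and STEAP3 (35.2 ± 5.32) did not differ beyond their spread, and IREB2 (22.6 ± 0.303), SCARA5 (1.10 ± 0.408) and SLC40A1 (0.426 ± 0.0554) came last on this length. In the untreated libraries the order was FTL (2931 ± 61.0 TPM), FTH1 (2668 ± 56.2), TFRC (249 ± 11.8), NCOA4 (191 ± 1.90), STEAP3 (75.2 ± 9.35), IREB2 (62.9 ± 0.106), SLC11A2 (44.5 ± 2.46), ACO1 (36.0 ± 2.41), SCARA5 (21.8 ± 6.62) and SLC40A1 (1.12 ± 0.0904). Neighbours in that order differed by more than either SD. Both orders hold for merged exon length only. With the median length of the coding transcripts, the lower clofazimine library of IREB2 had 34.1 TPM, above the clofazimine libraries of ACO1 at 27.8 and 26.6 and of STEAP3 at 20.6 and 16.7. With that length STEAP3 had 36.4 and 43.4 TPM in the untreated libraries, below SLC11A2 at 81.0 and 87.6.

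Among all genes ranked by TPM, FTH1 was at rank 7 and 2 in the clofazimine libraries, against 29 and 29 in the untreated libraries. FTL was at rank 10 and 6 with clofazimine, against 25 and 24 without. Which chain is more abundant depends on the lengths, because the merged exons of FTH1 cover 2030 bases and the median of its coding transcripts is 654.5 bases. With that median, the mean FTH1 to FTL ratio in TPM was 3.58 in the clofazimine libraries and 2.82 in the untreated libraries, in place of 1.16 and 0.91. The ranks moved as well, to 1 and 1 with clofazimine and 17 and 19 without for FTH1, and to 27 and 22 with clofazimine and 116 and 111 without for FTL.

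The other genes of iron handling were divided among 8 lists, with 82 entries in the table and 72 tested, of which 20 were higher, 24 lower and 28 not called in the clofazimine libraries. With the length and GC correction there were 28 higher and 16 lower, a share of higher calls of 63.6% in place of 45.5%. With library totals there were 16 higher and 29 lower (35.6%). Over all genes called the share of higher calls moved the same way, to 58.2% with the correction and 37.4% with library totals, in place of 49.2%. Over all genes tested the shares were those given above, 59.9% called, 29.5% higher and 30.4% lower. Each list's count below is to be set beside them. The median log2 fold change of the lists' genes was 0.07.

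Of 12 tested genes of the transferrin cycle and other uptake, 1 was higher and 7 were lower, and the median log2 fold change was -0.41. SLC39A8, which encodes the zinc and iron importer ZIP8, had 74.5 and 87.4 CPM in the clofazimine libraries, against 259 and 260.2 CPM in the untreated libraries. It fell by 1.68 on the log2 scale (SE 0.13, adjusted p 1.81e-08). LRP1, an endocytic receptor that takes up heme bound to hemopexin, fell to 585 and 306 CPM with clofazimine, against 1333 and 1513 CPM without (log2 fold change -1.68 ± 0.21, adjusted p 5.72e-06). Its log2 fold change was -1.04 with the length and GC correction. SLC39A14, which encodes the related importer ZIP14, was the member of this list that rose (317 and 312 CPM, against 233 and 207 CPM, adjusted p 0.00206), a call that ended without untreated replicate 2 (0.42). In that setting 0 genes of the list were higher and 5 lower.

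In the export and hepcidin list, 2 of 9 tested genes were higher and 4 lower (median -0.42). CP, which encodes ceruloplasmin, a ferroxidase that works with ferroportin, had 32.4 and 28.6 CPM in the clofazimine libraries, against 94.2 and 103 CPM in the untreated libraries. Its log2 fold change was -1.69 ± 0.13 (adjusted p 1.40e-08). NEO1, neogenin, a partner of the hepcidin co-receptor hemojuvelin, fell to 78.2 and 68.1 CPM, against 156 and 141 CPM (adjusted p 3.50e-06). SMAD6, an inhibitor of BMP signalling, rose by 0.63 (adjusted p 2.03e-04), and by 1.17 with the length and GC correction. The BMP receptor gene ACVR1 was at 0.56 (adjusted p 0.0102), and its call ended without clofazimine replicate 2 (0.32), without untreated replicate 2 (0.43) and without a filter (0.56). HAMP, which encodes hepcidin, had 0 counts in all 4 libraries. TF, the transferrin gene in the uptake list, had 1 and 2 counts with clofazimine and 7 and 3 without, and was not tested.

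Of 10 tested genes for cytosolic iron chaperones and for the control of iron regulatory proteins, 7 were higher and 2 lower (median 0.39). The count was 4 higher and 2 lower both with library totals and without untreated replicate 1. GLRX3, a glutaredoxin that carries iron-sulfur clusters in the cytosol, had 113 and 124 CPM in the clofazimine libraries, against 53.8 and 54.7 CPM in the untreated libraries (log2 fold change 1.13 ± 0.12, adjusted p 6.81e-07). PCBP2, an iron chaperone that also binds RNA, rose by 0.82 (adjusted p 3.43e-05). CUL1, the scaffold of the ubiquitin ligases that include the one for iron regulatory proteins, fell by 1.25 on the log2 scale (adjusted p 2.37e-07). FBXL5, the iron-sensing subunit of that ligase, was at 0.17 ± 0.12 and was not called. BOLA2B, which has a near-identical copy, was called lower (-1.99, adjusted p 0.0341) on 1 untreated library, with 0.855 and 0.459 CPM in the clofazimine and 0.342 and 4.81 CPM in the untreated libraries, and was at 0.89 without untreated replicate 2, -2.90 without untreated replicate 1 and -1.05 with limma-voom.

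Of the 5 other genes listed as carriers of a known iron-responsive element, 1 was called, CDC42BPA, a kinase of the cytoskeleton, at -0.42 (adjusted p 0.0106). The call ended without clofazimine replicate 2 (-0.25), without untreated replicate 1 (-0.39), without a filter (-0.42) and with the length and GC correction (-0.13), under which 2 genes of the list were called, both higher. EPAS1, which encodes the hypoxia factor HIF-2 alpha, was at 0.01 ± 0.13 and was not called.

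In the ferritin turnover list, 1 of 4 tested genes was higher and 2 were lower. TAX1BP1, a cargo receptor of selective autophagy that takes part in ferritin delivery with NCOA4, had 239 and 260.0 CPM in the clofazimine libraries, against 129.7 and 117 CPM in the untreated libraries (log2 fold change 1.02 ± 0.12, adjusted p 3.54e-06). HERC2, the ubiquitin ligase for NCOA4, fell by 0.98 on the log2 scale (adjusted p 7.17e-05), and was at -0.38 with the length and GC correction. PROM2, which is linked to ferritin export, averaged 0.684 ± 0.132 CPM with clofazimine and 2.70 ± 0.990 CPM without (SD, n = 2 libraries each, edgeR adjusted p 9.34e-04), a call that ended without untreated replicate 2 (-1.56). PROM2 had 10 and 9 counts in the clofazimine libraries and 35 and 60 in the untreated libraries. It passed the filter only through the untreated libraries, which favoured a lower level with clofazimine. FTMT, the mitochondrial ferritin gene, had 0 counts in every library.

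Of 16 tested genes of mitochondrial iron and iron-sulfur cluster assembly, 6 were higher and 3 lower (median 0.18). With the length and GC correction 8 were higher and 0 lower, and without untreated replicate 1 the count was 4 higher and 2 lower. BOLA3 and ISCA1, which act late in cluster assembly, rose by 0.86 (adjusted p 0.00111) and 0.85 (adjusted p 7.77e-05). IBA57, a partner of ISCA1, was at -0.85 (adjusted p 0.00162) and FDXR, ferredoxin reductase, at -0.61 (adjusted p 0.0026), and both calls ended with the length and GC correction (-0.31 and -0.29).

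Heme synthesis had 1 of 8 tested genes higher and 5 lower, at a median of -0.41. ALAS1, the first enzyme of the pathway, rose to 152 and 144 CPM in the clofazimine libraries, against 86.4 and 89.5 CPM in the untreated libraries (log2 fold change 0.75 ± 0.12, adjusted p 4.17e-05). FECH, ferrochelatase, which inserts iron into protoporphyrin in the last step, fell to 15.6 and 19.9 CPM, against 43.9 and 43.8 CPM (log2 fold change -1.30 ± 0.15, adjusted p 1.46e-06). CPOX, which acts earlier, fell by 0.70 on the log2 scale (adjusted p 5.06e-04). With the length and GC correction 1 gene of the list was higher and 2 were lower.

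For heme breakdown and transport, 2 of 8 tested genes were higher and 0 lower (median 0.25). HMOX1, the inducible heme oxygenase that frees iron from heme, had 86.0 and 102 CPM in the clofazimine libraries, against 36.5 and 36.1 CPM in the untreated libraries (log2 fold change 1.38 ± 0.13, adjusted p 1.50e-07). FLVCR1, known as a heme exporter and choline transporter, rose by 0.59 (adjusted p 5.79e-04). The constitutive heme oxygenase HMOX2 was at 0.24 ± 0.13 and was not called. The list's count was 4 higher with the length and GC correction and 5 higher without clofazimine replicate 1.

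**Figure D4:**
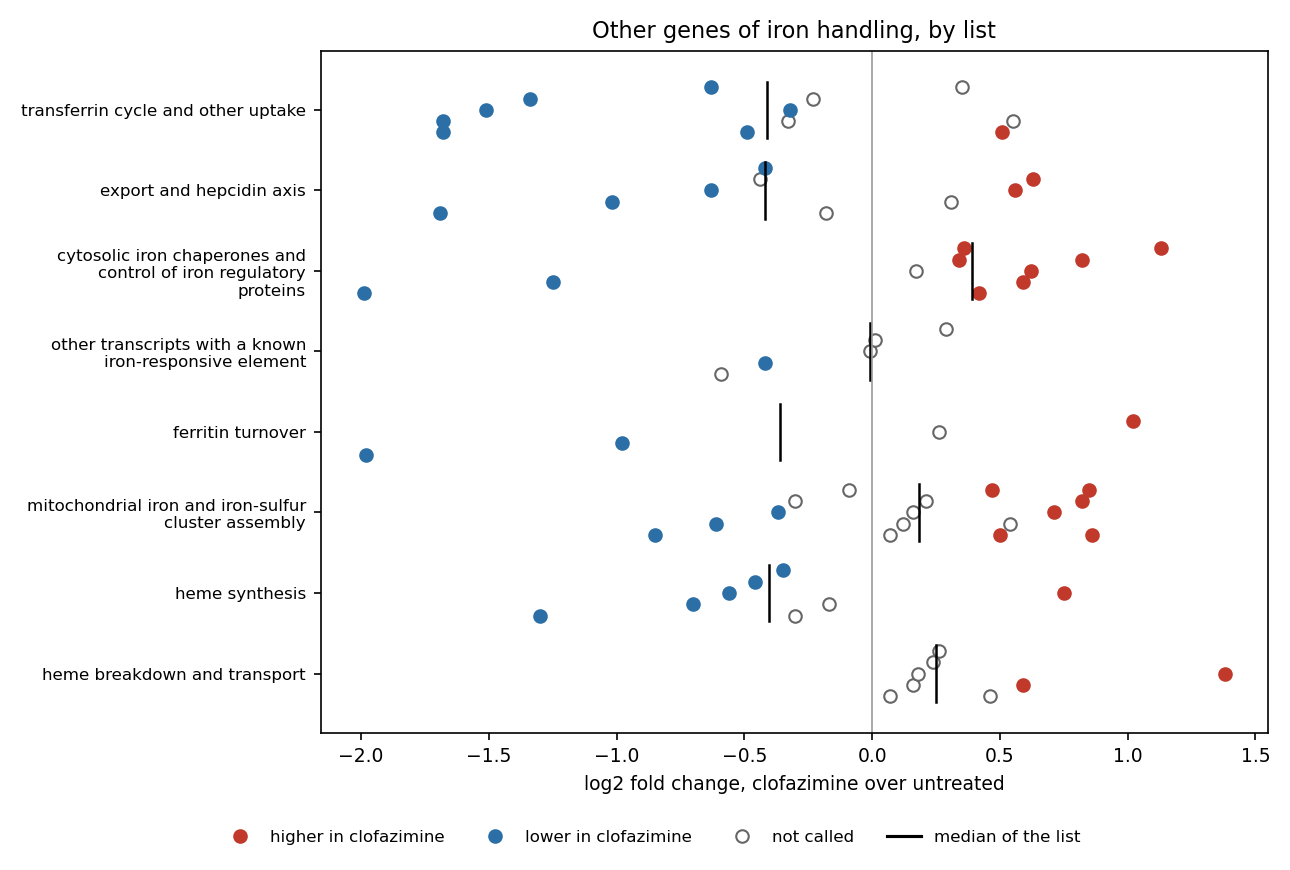
Log2 fold change, clofazimine over untreated, of the 72 tested genes in 8 lists of iron handling, 1 point per gene, filled red where called higher, filled blue where called lower and open where not called, with a black line at each list's median. The medians run from -0.42 for export and hepcidin to 0.39 for cytosolic chaperones, and every list but the last holds a gene called lower.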

How the data were processed

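For 4 libraries, the authors deposited a table of unnormalised read counts per gene, per the file headers. Polyadenylated RNA was made into Illumina TruSeq libraries, per the labels' protocols, and fastp and GRCh38 were used, per the submitters' processing notes. The aligner, counter, strand setting and annotation release are not given in the sources used here. All 58735 identifiers matched GENCODE 29, which gave symbols, positions and lengths. Genes were tested with edgeR 4.0.16 (R 4.3.3), quasi-likelihood, TMM and filterByExpr (minimum count 10, total 15), with Benjamini-Hochberg adjustment over 16388 genes. The pipeline was tested on simulated data in which far fewer genes changed than were called here. That run does not test TMM scaling with so many genes changed. The SE is the log2 fold change divided by the root of F. Replicates differed beyond counting noise (chi-square per degree of freedom 13.1 for clofazimine and 6.40 for untreated). Members and lists were chosen with earlier results of these data known. Named were all members, copies with a mean of at least 1 CPM and, per list, up to 2 called genes per direction with at least 1 CPM and the largest change. Others were named after their values were seen.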

Additional observations from a re-analysis of the deposited data

How the results depend on the processing

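The alternatives were DESeq2 size factors, library totals, limma-voom 3.58.1, no filter on low counts, at least 1 CPM in 2 libraries as the filter, DESeq2 1.42.0 with its Wald test, a replicate block, a smooth correction for exon length and GC content (mgcv 1.9.3, which moved the median gene by 0.13 on the log2 scale), each library left out, and ferritin copies added. Across them 6 of the 10 members and 17 of the 24 named other genes kept call and direction. NCOA4 was at -0.14 with library totals and -0.02 after the GC and length correction, and -0.03 to 0.11 with 1 library left out (-0.03 without clofazimine replicate 2, -0.0046 without untreated replicate 1), while BOLA2B was at -2.90 to 0.89. The number of genes called lay between 6920 and 9782, and of members between 6 and 8, when 1 library was left out. Other genes of iron handling called numbered 33 to 43 then. Of the carriers of an iron-responsive element, 0 were called with no filter, 2 with the length and GC correction (both higher, where the 1 call otherwise was lower), and 0 to 1 with a library left out. The length and GC correction called 3 genes of heme synthesis and 4 of heme breakdown, and leaving out a library gave 4 to 7 and 2 to 5. Uptake genes called numbered 5 to 8 with a library left out. With copies added the untreated FTH1 to FTL ratio was 2.12, and with coding transcript lengths, chosen after seeing the data, the TPM ratio was 3.58 with clofazimine and 2.82 untreated. Same-numbered libraries did not deviate together across genes (correlation -0.05). With 2 libraries per group, that value cannot show whether same-numbered libraries were handled as pairs, and the labels do not state it. The replicate block called 9605 genes, 8 members and 45 other genes of iron handling. The cause of these shifts was not tested. Depth limits SLC40A1, with 6 to 22 counts a library.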

Other observations

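The hairpin search also matched 18 genes outside the members, 11 of which were tested. In the clofazimine libraries 1 was higher, 5 were lower and 5 were not called. Over all genes tested 59.9% were called, 29.5% higher and 30.4% lower, so this count does not set the matched genes apart. PPIP5K2, an inositol phosphate kinase with a match in its 3′ untranslated region, had the largest difference of them, at 12.4 ± 2.23 CPM with clofazimine and 26.7 ± 0.188 CPM without (SD, n = 2 libraries each). Its log2 fold change was -1.10 ± 0.16 (edgeR adjusted p 2.21e-05). LIMS1, an adaptor of focal adhesions with a match in its coding sequence, was the gene that was higher (0.54 ± 0.12, adjusted p 0.0011). PDK1, pyruvate dehydrogenase kinase, was at -0.02 ± 0.12. These genes were picked after the data were seen and no match here was shown to bind an iron regulatory protein.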
